A study of Mus musculus with 4 samples.

Results

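Gene deserts are long stretches of a chromosome without protein-coding genes. Here a desert is the sequence more than 200 kb from the span of every protein-coding gene in RefSeq's gene table for mm10 (GRCm38.p6). The members described are the summits of Fos CUT&Tag peaks on chromosomes 1 to 19 that lie in such sequence. They numbered 4397 of 176597 autosomal summits, which is 2.49% (95% Wilson interval 2.42 to 2.56%), and of 178981 summits in all. The 4397 summits lay in 3410 of the 106773 autosomal peak regions, and in 511 of 731 deserts. The choice used position alone and no measured value.

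Fos was profiled in mouse colonic mucosa of WT genotype, labelled colonic epithelium. Colitis recovered mice (2 libraries) had received DSS, a colitis-inducing polymer, in the drinking water at 1 to 1.5% for 3 cycles of 7 days on and 10 days off. They were sacrificed at 22 days from the end of their last cycle. Healthy controls (2 libraries) carry the label control as their treatment. Colons of both groups were incubated with 4 mM EDTA and 10% FBS for 30 min before the mucosa was scraped, and all 4 libraries share 1 batch label. The list of summits covers the series as a whole and has no column per library, so recovered and healthy mucosa could not be compared and no value below has a replicate. No library made without the Fos antibody was used here, and no expression was measured, so the labelled tissue could not be checked against its markers.

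Fos pairs with Jun proteins to form AP-1, a leucine zipper transcription factor that growth signals, stress and injury induce quickly. AP-1 recognises the palindrome TGANTCA and is known to work largely at enhancers, many of them far from the genes they act on. Deserts that flank genes for transcription factors and signalling proteins are known to hold long-range enhancers, whereas other deserts are poor in known regulatory sequence. Which gene a distant summit acts on was not measured here, and a flanking gene is named only for its position.

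Few sequences could be printed, because no genome sequence was used here. Of the 4397 desert summits, 3479 lay outside every gene of the table. Promoter windows of lncRNA genes (250 bases before to 50 after a transcript start, from RefSeq, GRCm38.p6) are the places in deserts where a summit meets an annotated start. Such windows numbered 1023 in deserts, and 23 of them, of 22 genes, held a desert summit. The pair with the strongest summits is printed below on the minus strand, 5′ to 3′, with the base under the summit in capitals. The window of 4930579D09Rik, between Etnk1 and Sox5, is chr6:143535459-143535758. The window of Gm26901, between Pcmtd1 and Sntg1, is chr1:7398047-7398346.
4930579D09Rik: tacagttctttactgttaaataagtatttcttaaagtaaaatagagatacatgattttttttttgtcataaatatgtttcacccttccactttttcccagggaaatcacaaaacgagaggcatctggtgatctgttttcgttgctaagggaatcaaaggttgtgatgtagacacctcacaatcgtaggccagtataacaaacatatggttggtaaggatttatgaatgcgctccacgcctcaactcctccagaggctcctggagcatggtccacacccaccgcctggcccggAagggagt
Gm26901: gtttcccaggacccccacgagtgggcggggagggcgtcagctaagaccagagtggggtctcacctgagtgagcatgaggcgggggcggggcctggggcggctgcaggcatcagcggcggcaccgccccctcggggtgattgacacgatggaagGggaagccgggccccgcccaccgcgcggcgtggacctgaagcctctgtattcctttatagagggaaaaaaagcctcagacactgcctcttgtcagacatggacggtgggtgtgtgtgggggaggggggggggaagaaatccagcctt

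The AP-1 pattern TGANTCA reads the same on both strands, so a single scan covers both. It was found in 4 of the 23 windows with a desert summit, which is 17.4% (95% Wilson interval 6.98 to 37.1%). It was found in 10.6% (9.21 to 12.2%) of the 1670 lncRNA windows with any summit, in 9.01% of the 9641 without one and in 7.84% of all 31396 autosomal promoter windows. The interval of the 23 windows covers all of these shares. The 23 are among the 1670, and overlapping windows of Gm33041 share a summit. The interval is therefore a description, and no difference can be read at this number. The stretches around the 4 matches are printed with the matching letters in capitals. Gm39160 (chr8:34472958-34473018, minus strand) and Gm46038 (chr8:34456668-34456719, plus strand) both lie between Saraf and Dusp4. Gm30257 (chr2:72733597-72733657, plus strand) lies between Cdca7 and Sp3, and 4933416E03Rik (chr2:159947188-159947248, plus strand) between Dhx35 and Gm826.
Gm39160: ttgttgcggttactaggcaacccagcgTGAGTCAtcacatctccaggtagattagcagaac
Gm46038: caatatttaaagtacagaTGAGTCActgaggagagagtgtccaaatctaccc
Gm30257: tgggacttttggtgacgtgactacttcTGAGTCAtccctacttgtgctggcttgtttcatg
4933416E03Rik: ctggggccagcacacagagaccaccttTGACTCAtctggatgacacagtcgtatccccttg

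The matches were not under the summits. Their centres lay 154 bp from the summit at Gm39160, 98 bp at Gm46038, 52 bp at Gm30257 and 114 bp at 4933416E03Rik. The summits in these 4 windows had folds of 9.14 at Gm39160, 8.90 at Gm46038, 6.25 at Gm30257 and 3.61 at 4933416E03Rik. The windows of 4930579D09Rik and Gm26901, whose summits had folds of 114.7 and 86.1, held no TGANTCA. A match describes letters in a window and is not a measured site, and the lack of one says only that these letters are absent there.

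Desert summits were sparse. There were 9.59 per Mb in the 458.5 Mb of desert sequence, against 62.6 per Mb in intergenic sequence 1 to 200 kb from a gene, a ratio of 0.153 (0.149 to 0.158, counting error only). Desert sequence made up 19.1% of the bases considered and held 2.49% of the summits. Densities here and below count all bases, and the part where reads cannot be placed uniquely was not measured. Density fell with distance in each step of intergenic sequence. It was 108.0 per Mb at 1 to 10 kb from a gene, 67.2 at 10 to 50 kb, 34.3 at 50 to 200 kb, 14.5 at 200 to 500 kb and 3.33 over 500 kb. Around gene boundaries, within 1 kb of either end of a span, it was 409.5 per Mb, and in gene interiors 88.8 per Mb.

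The fall continued inside the deserts. From 200 to 300 kb there were 2262 summits at 19.0 per Mb, and from 300 to 400 kb there were 988 at 12.2 per Mb. The density was 7.34 per Mb from 400 to 600 kb, 3.27 from 600 to 1000 kb and 1.67 beyond 1000 kb, where 110 summits lay. The median desert summit was 296 kb from its nearest protein-coding gene and the farthest was 2031 kb away. The 200 kb limit itself marks no step. Just inside it, from 200 to 220 kb, 599 summits stood at 21.6 per Mb with a median fold of 5.53, and just outside, from 180 to 200 kb, 682 stood at 22.0 per Mb with a median fold of 5.29. The nearest on the inner side was 200004 bp from Gdnf, with a fold of 28.6, and the nearest on the outer side 199944 bp from Lacc1, with a fold of 5.05.

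Fold is the authors' enrichment at a summit over background, a linear ratio. Its values equal the fragments at the summit plus 1, divided by a constant background of 3.16 fragments plus 1, so each fragment adds 0.2405 and the number of fragments can be read from the fold. Desert summits had a median fold of 5.05 (quartiles 3.61 and 10.6), which is 20 fragments. Nearer intergenic summits had a median fold of 6.49 (quartiles 4.09 and 14.2), which is 26 fragments. A fold of 50 or more was reached by 174 desert summits, which is 3.96% (3.42 to 4.57%), and by 6.58% (6.38 to 6.78%) of the nearer ones. The intervals do not overlap, but they cover counting error alone. The density of such strong summits in deserts was 0.0922 times that in nearer intergenic sequence, a lower ratio than the 0.153 for all summits.

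The median fold changed far less with distance than density did. By distance within the deserts the median fold was 5.29 at 200 to 300 kb, 4.81 at 300 to 400 kb, 5.05 at 400 to 600 kb, 4.81 at 600 to 1000 kb and 4.57 beyond. No desert summit had a fold under 2.65, which limits how far a median can fall. A fold of 50 or more was reached by 109 of 2262 summits at 200 to 300 kb and by 31 of 988 at 300 to 400 kb. It was reached by 21 of 734 at 400 to 600 kb and by 6 of 303 at 600 to 1000 kb. This share thus fell with distance up to 1000 kb. Of the 110 farthest, 7 had a fold of 50 or more, and 6 of these belong to a single cluster beside Lrrc4c, described after the plot of distance classes. The desert regions were also simpler and narrower. Of desert summits 62.3% were the sole summit of their region, against 45.3% of nearer intergenic ones, and the median region was 387.5 bp wide in deserts against 504 bp nearer to genes.

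**Figure D1:**
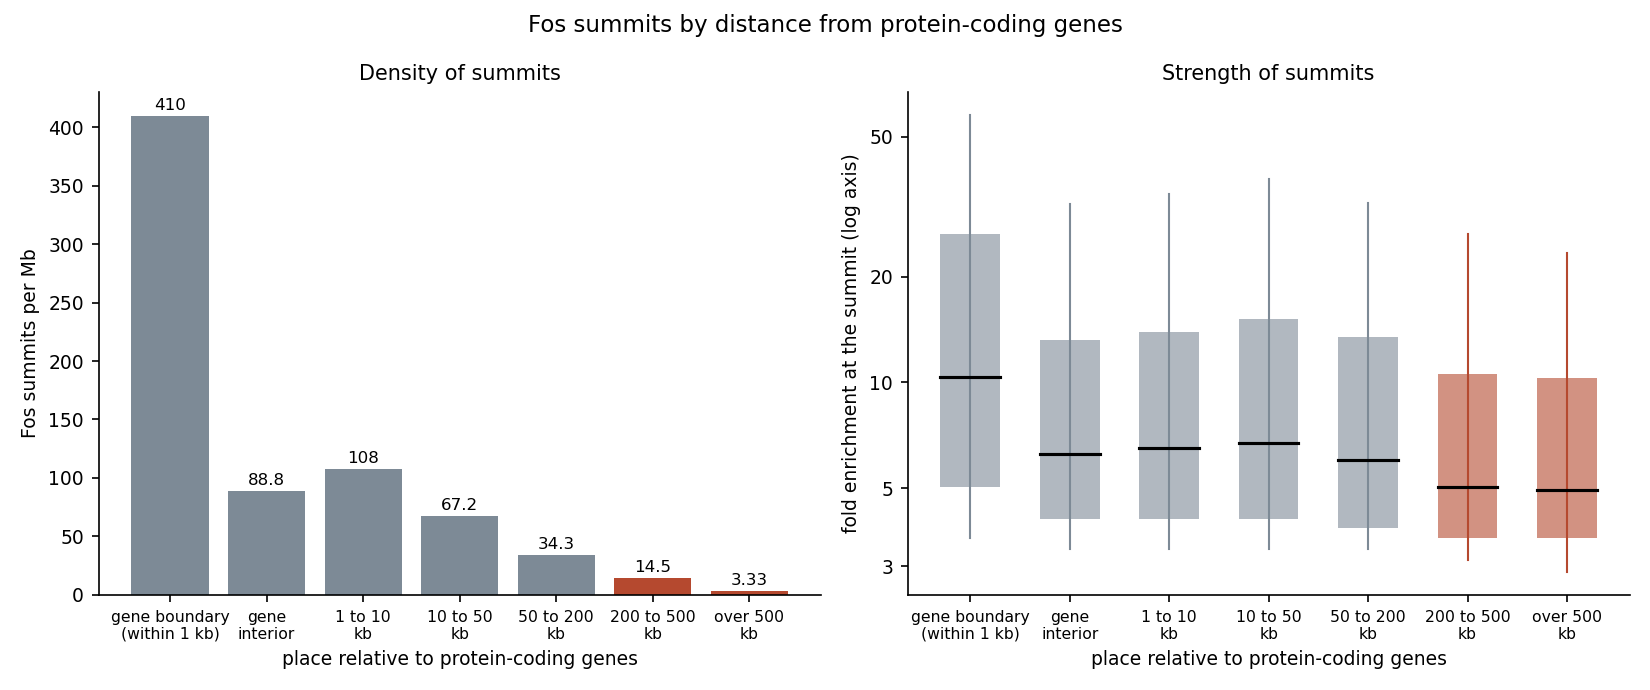
Left, Fos summits per Mb by place relative to protein-coding genes; right, fold enrichment at the summit on a log axis, where boxes span the quartiles, the black line is the median and the thin line runs from the 10th to the 90th percentile, with desert classes in red. Density falls to 14.5 and 3.33 per Mb in the desert classes, while their median folds of 5.05 and 4.93 stay close to the 6.01 of summits at 50 to 200 kb. The 90th percentile falls from 32.5 at 50 to 200 kb to 26.5 and 23.4 in the desert classes.

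The strongest desert summit, between Lrrc4c, which encodes a synaptic netrin-G ligand, and Iftap, stands apart from the rest. At position 98667207 of chromosome 2 it had a fold of 357.7 and 1486 fragments (95% Poisson interval 1411 to 1564). It belongs to 7 summits within 4.84 kb whose folds ran from 5.05 to 357.7. The whole desert, of 3.53 Mb, held 2 other summits, with folds of at most 3.13. In mm10 this interval is known, as background, for pileups of reads that belong to repeats. No list of such regions was used here, and the part of misplaced reads in its fold was not tested.

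Chromosome starts, where the first assembled bases adjoin the centromere, gave runs of mostly weak summits. Whether misplaced reads contribute to them was not tested. At the start of chromosome 3 there were 19 summits with folds of 2.65 to 4.57, at that of chromosome 9 there were 14 with folds of 2.65 to 11.3, and at that of chromosome 16 there were 10 with folds of 3.13 to 5.29. The 5 summits at the start of chromosome 13 were higher, with folds of 4.81 to 29.3. Without these starts and the Lrrc4c cluster, 4342 summits remained and the median fold was again 5.05.

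The next strongest summits lay in different deserts. The second was between Serp2 and Lacc1 on chromosome 14, with a fold of 248.2 from 1031 fragments (969 to 1096), 204 kb from Lacc1, a gene linked in humans to inflammatory disease. It lay inside the lncRNA genes Gm30246 and Gm30365. The summit between Wdr11 and Fgfr2 reached a fold of 241.5 with 1003 fragments (942 to 1067), at 225 kb from Fgfr2, which encodes a fibroblast growth factor receptor of epithelia. Between Adam34l and Fat1, a giant cadherin gene, the fold was 185.2, at 477 kb from Fat1. A fold of 100 was reached by 48 of the 4397 desert summits.

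Other summits of the strongest 10, counting 1 per region, had folds of 147.0 to 163.3. That between Ndfip2 and Spry2, which encodes an inhibitor of receptor tyrosine kinase signalling, had 163.3 and lay 4961 bp from the lncRNA gene Gm6145. Between Fat3, a further giant cadherin gene, and Chordc1, which encodes an Hsp90 co-chaperone, the fold was 157.8 at a distance of 616 kb from Chordc1. Between Ccer1 and Atp2b1, which encodes a calcium pump of the plasma membrane, it was 156.8. Between Akr1e1 and the zinc finger gene Klf6 it was 148.9, at 312 kb from Klf6 and 3917 bp from the lncRNA gene Gm40661. Between the genes of the matrix protein tenascin C (Tnc) and the protease Pappa it was 147.0.

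Desert summits gathered in groups, and the larger groups held the stronger summits. Another desert summit lay within 10 kb of 70.1% of them (68.7 to 71.4%), against 88.4% of nearer intergenic summits with one of their own class and 84.2% of those at 50 to 200 kb. These shares were not adjusted for the lower density in deserts. The median distance to the nearest neighbour was 1745 bp in deserts and 646 bp nearer to genes. The 1316 desert summits without such a neighbour had a median fold of 3.85, and 11 of them reached 50. The 3081 with one had a median fold of 6.01, and 163 of them reached 50. Thus 93.7% of the 174 strong desert summits had a neighbour within 10 kb.

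Linking desert summits up to 10 kb apart gave 2152 groups, of which 1316 were single summits. Summits within 200 kb of a gene were not linked, so groups that reach this limit are cut there. Between Serp2 and Lacc1 a group ends at position 76821563 of chromosome 14, and an excluded summit lies at 76821795. There were 170 groups of 5 or more, which held 31.0% of the desert summits, and 40 groups of 10 or more, which held 12.4%. The fold of the strongest summit of a group had a median of 3.85 for single summits, 7.94 for pairs, 14.4 for groups of 3 to 4, 31.4 for groups of 5 to 9 and 76.5 for groups of 10 or more. A fold of 50 was reached in 31 of the 40 largest groups. The maximum of a larger group is taken over more summits, and wide regions with strong signal are split by the peak caller into several summits, so size and strength were not measured independently.

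**Figure D2:**
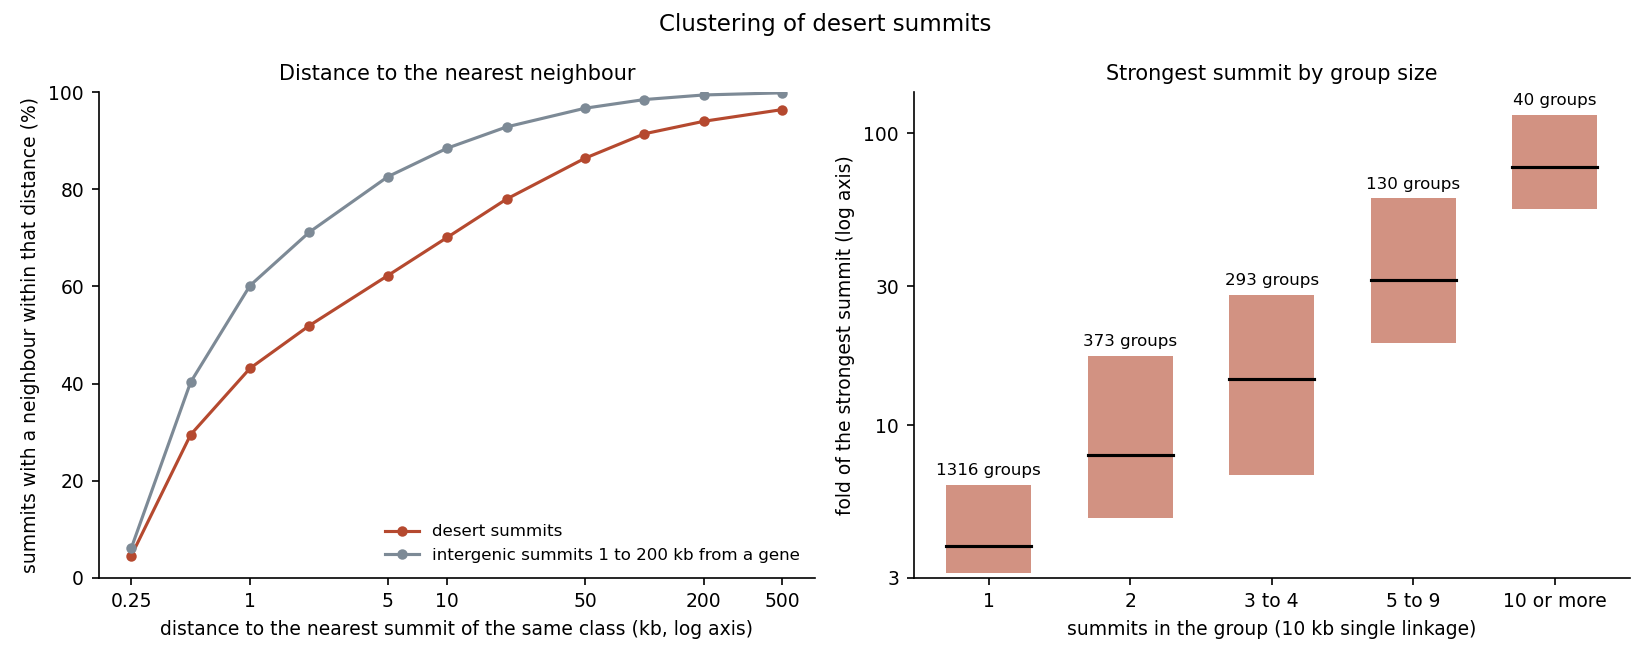
Left, cumulative share of desert summits (red) and of intergenic summits 1 to 200 kb from a gene (grey) that have another summit of their class within the distance on the log x axis; right, fold of the strongest summit in each group of desert summits by group size, as median (line) and quartiles (box) on a log axis. At 10 kb the curve of desert summits stands at 70.1% and that of nearer summits at 88.4%, and the median strongest fold is 3.85 for single summits and 76.5 for groups of 10 or more.

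The largest group had 25 summits in 52.5 kb between Ccer1 and Atp2b1, with folds up to 113.8, and ended 210 kb from Atp2b1. Groups of 19 lay between Akr1e1 and Klf6 (35.8 kb, up to 148.9), between Klf14 and Mkln1 (19.6 kb, up to 126.0) and between Klf5 and Klf12 (25.8 kb, up to 98.1). All 19 of the Klf14 group lay inside Lncpint, an lncRNA gene known as a target of p53, and all 19 of the Klf5 group lay inside lncRNA genes. Groups of 18 lay between Serp2 and Lacc1 (40.8 kb, up to 248.2), between the imprinted genes Rtl1 and Dio3 (36.3 kb, up to 126.8) and between Map3k1, a kinase gene of the JNK pathway, and Ankrd55 (39.0 kb, up to 57.7). A group of 17 lay between Klf4 and Actl7b (19.2 kb, up to 83.0). The group of 16 between Ndfip2 and Spry2 covered 43.2 kb and reached 163.3.

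Size alone did not make a group strong. The 18 summits at the start of chromosome 3, spread over 27.0 kb, reached a fold of at most 4.57, or 18 fragments. Of the 40 groups of 10 or more, 3 others were similarly weak: 11 summits between Gm12887 and Gm10573 on chromosome 4 (at most 4.09), 10 between Nphp4 and Ajap1 on the same chromosome (at most 6.01), and 10 at the start of chromosome 16 (at most 5.29).

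The summits were spread unevenly over the deserts. The median desert held 2, and 220 of the 731 held none. The 10 richest held 524 summits, 11.9% of the total, on 2.16% of the desert sequence, and the 76 richest held at least 50% of them on 13.4%. Over the 731 deserts the rank correlation of summits with Mb of desert was 0.416, given as a description because adjoining deserts share genes. Chromosome 13 was the densest autosome, with 495 summits at 22.6 per Mb, against 4.71 to 13.4 per Mb on the others. Its 4 deserts among the richest 10 held 190 of these in 1.91 Mb, and the remaining 305 stood at 15.2 per Mb.

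The richest desert lay between Klf4, which encodes a zinc finger factor of goblet cell differentiation, and Actl7b, an actin-like gene of the testis. It held 80 summits in 0.808 Mb, which is 99.1 per Mb, and 56 of them were nearer to Klf4. The strongest had folds of 83.0 at 237 kb from Klf4, 73.4 at 389 kb, 72.4 at 327 kb, 70.0 at 421 kb and 64.2 at 582 kb. Strong summits were thus strung out along the Klf4 side, and 8 of the 80 reached a fold of 50.

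Klf6, an immediate early zinc finger gene, had rich deserts on both sides. That towards Akr1e1, an aldo-keto reductase gene, held 55 summits at 64.5 per Mb, of which 43 were nearer to Klf6, with a median fold of 12.0. Its strongest summits had folds of 148.9 at 312 kb and 115.5 at 436 kb from Klf6. The desert towards Pitrm1, a mitochondrial protease gene, held 45 summits at 162.0 per Mb. Of these, 26 were nearer to Klf6 and 19 to Pitrm1. It had folds of 145.8 at 385 kb, 139.8 at 239 kb and 134.9 at 261 kb from Klf6. The first of these was nearer to Pitrm1, at 293 kb. The highest values of both deserts were alike.

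The desert between Klf5, a factor of proliferating crypt cells, and the related repressor gene Klf12 was short, with 0.153 Mb, and the densest of the 10. It held 45 summits, or 294.6 per Mb, and 44 of them lay inside lncRNA genes. The strongest, with a fold of 104.9, was 223 kb from Klf5, and the next, with 98.1, was 241 kb from Klf12. The summits were divided about evenly, with 21 nearer to Klf5 and 24 nearer to Klf12.

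Ptger4, which encodes the prostaglandin E2 receptor EP4, and Dab2, an endocytic adaptor gene, flanked the second richest desert, with 68 summits at 103.7 per Mb. Its strongest pair had folds of 134.7, at 293 kb from Ptger4 and inside the lncRNA gene 5430437J10Rik, and 80.6, at 295 kb. In all, 36 summits were nearer to Ptger4 and 32 to Dab2, and the highest on the Dab2 side, at 274 kb, had a fold of 34.9. Between Cd83, an immunoglobulin family gene of dendritic cells and lymphocytes, and Jarid2, which encodes a partner of Polycomb complex PRC2, 48 summits stood at 91.0 per Mb. Of these 35 were nearer to Jarid2, among them the strongest, with a fold of 128.0 at 321 kb.

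In a pair of very long deserts the summits lay mostly towards one end. Between Nmbr, the neuromedin B receptor gene, and Cited2, which encodes a partner of the co-activators CBP and p300, all 52 summits were nearer to Cited2, although the desert spanned 2.55 Mb. The strongest had folds of 55.1 at 252 kb and 53.9 at 688 kb from Cited2. Between Zeb2, a repressor gene of epithelial-mesenchymal transition, and the activin receptor gene Acvr2a, 34 of 45 summits in 3.30 Mb were nearer to Acvr2a. The strongest there had folds of 125.1 at 269 kb and 93.8 at 372 kb from Acvr2a, while the strongest on the Zeb2 side had 57.7 at 1326 kb.

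The last of the 10 richest deserts lay beside a Mediator gene and a stress gene. Between Med13l and the T-box gene Tbx3, 44 summits stood at 87.1 per Mb, the strongest with a fold of 128.9 at 220 kb from Med13l. A further summit of the same region had a fold of 102.2, and the strongest of any other region had 48.1, at 436 kb from Med13l. Between Gadd45g, a growth arrest gene induced by stress, and Diras2, which encodes a Ras-like GTPase, 42 summits stood at 164.1 per Mb. The strongest had a fold of 86.6 at 212 kb from Gadd45g, and the median was 5.17, the lowest of the 10.

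**Figure D3:**
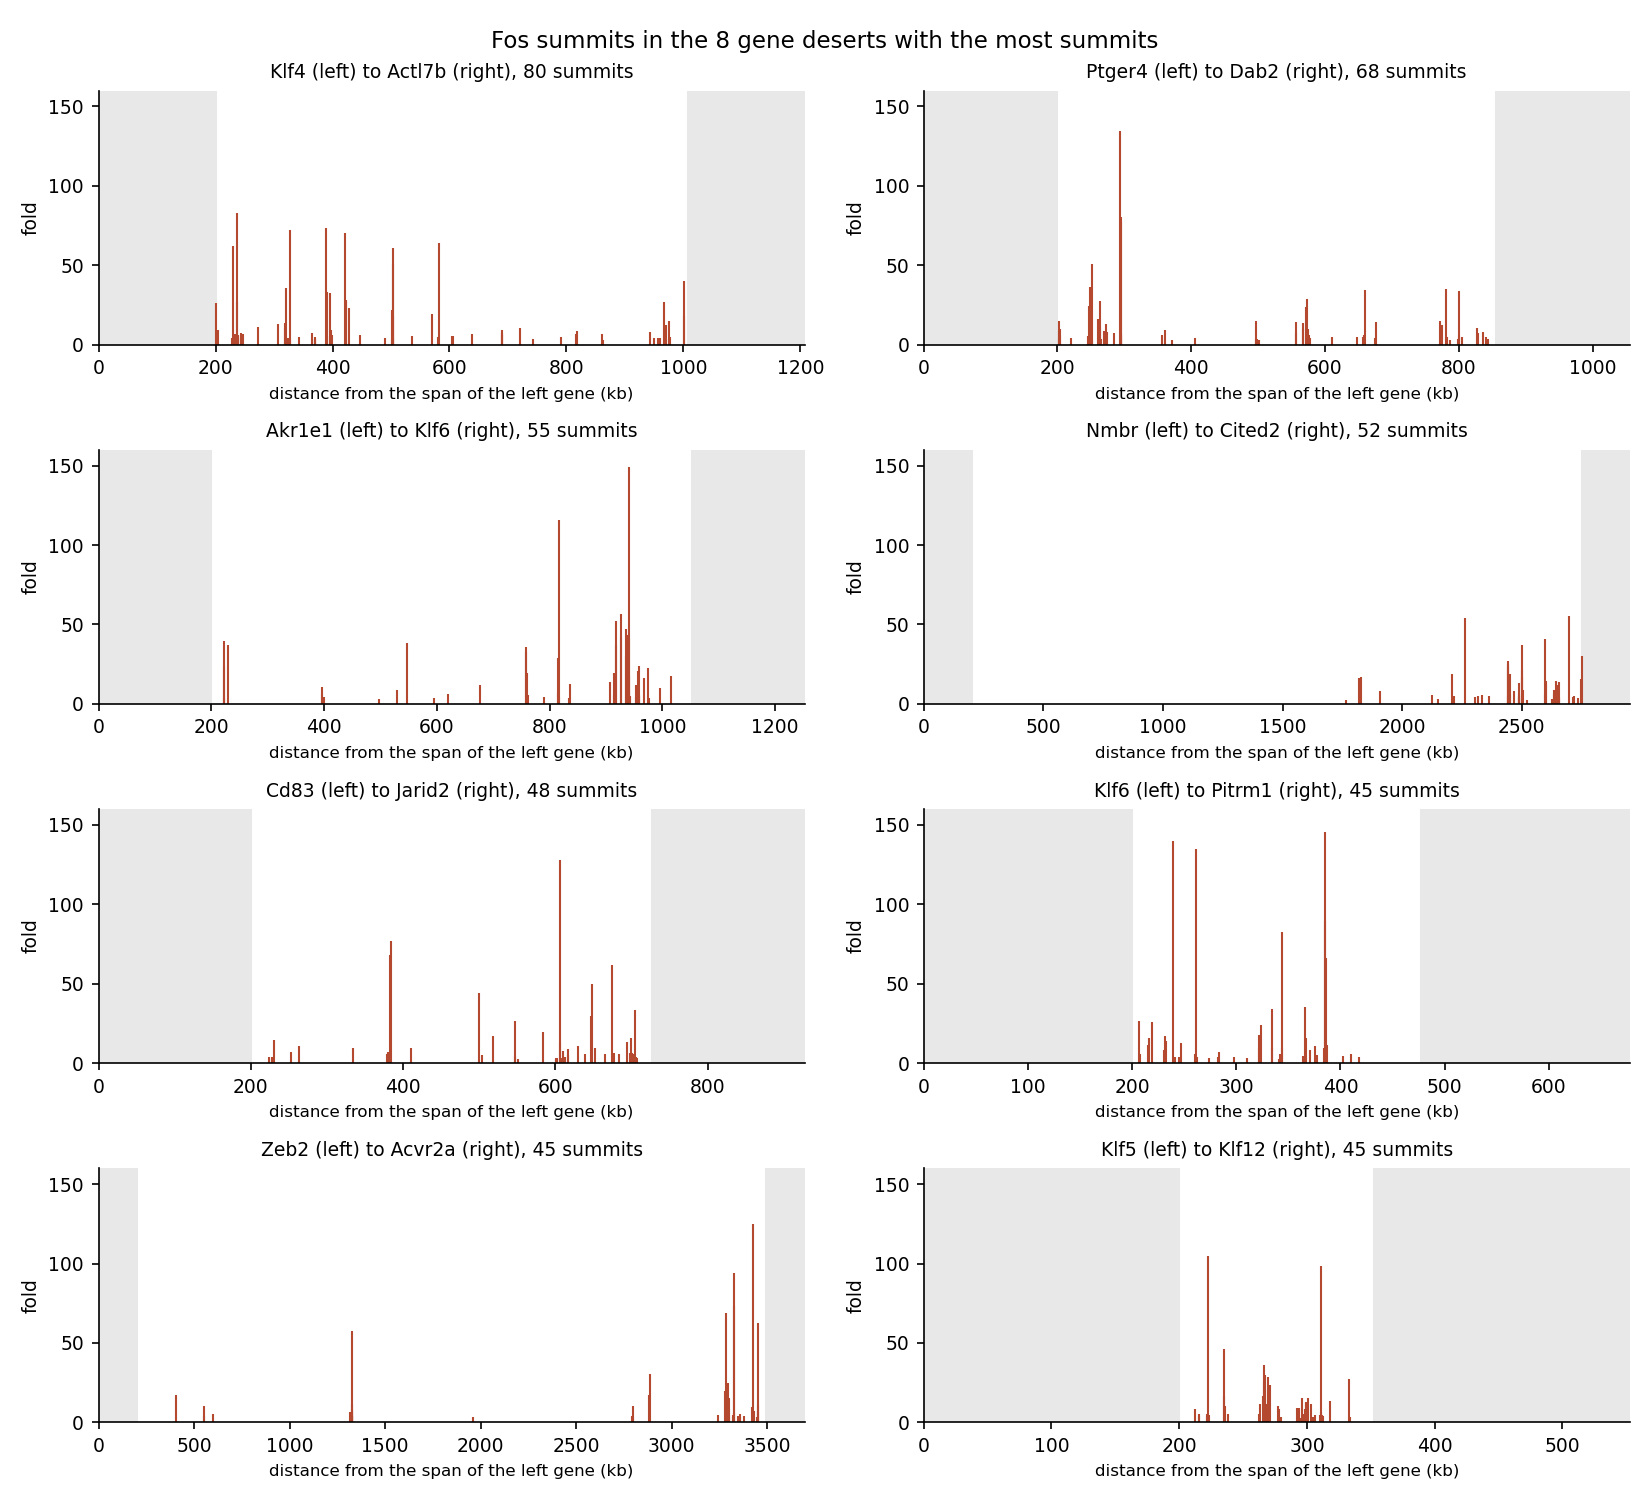
Fos summits in the 8 deserts with the most summits, as vertical lines whose height is the fold, against the distance from the span of the gene on the left in kb; grey bands are the first and last 200 kb, which are not desert. All 52 summits of the desert between Nmbr and Cited2 lie towards Cited2, and in that between Klf4 and Actl7b 56 of 80 lie towards Klf4.

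Among the 141 deserts with at least 1 Mb, density had a median of 2.40 per Mb, and 11 held no summit. The densest lay between Sall3, a zinc finger gene, and the galanin receptor gene Galr1, with 29.8 per Mb from 30 summits, of which the strongest had a fold of 29.1. The desert between the angiotensin receptor gene Agtr1b and Tbl1xr1, which encodes a subunit of NCoR corepressor complexes, had 23.7 per Mb and a summit of fold 79.6, at 332 kb from Tbl1xr1. Next came that between Nmbr and Cited2 with 20.4 per Mb, that between Ttll7 and the latrophilin gene Adgrl2 with 20.3, and that between Nectin3, an adhesion gene, and Gm52257 with 19.0. The deserts between Bcl11a and Fancl (18.7), Gfra2 and Gm9195 (16.2), Arrdc4 and Nr2f2 (15.8), Arpp21 and Pdcd6ip (15.8) and Lcorl and Slit2 (14.5) completed the 10. Strength varied widely among them: the strongest fold was 87.8 between Ttll7 and Adgrl2 and 9.86 between Arpp21 and Pdcd6ip.

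The longest deserts without a summit lay between Nudt12 and the ephrin gene Efna5 (3.19 Mb), between Tmprss15, the enteropeptidase gene of the small intestine, and the neural adhesion gene Ncam2 (1.71 Mb), and between 4931408C20Rik and Gm597 (1.69 Mb). By contrast, the Nmbr to Cited2 desert of 2.55 Mb held 52. Whether reads can be placed uniquely in them was not tested.

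**Figure D4:**
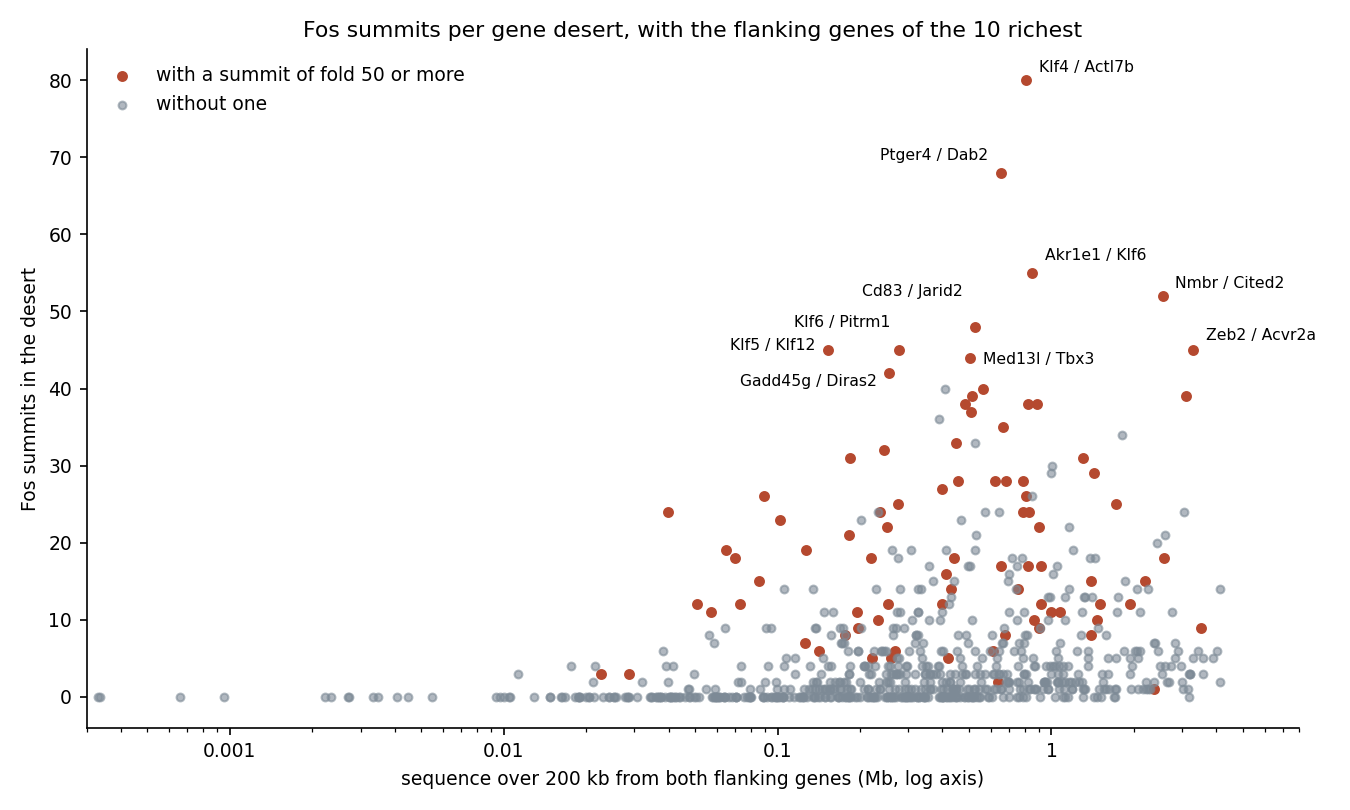
Fos summits in each of the 731 deserts against the Mb of sequence over 200 kb from both flanking genes (log axis), with the flanking genes of the 10 richest; red points are the deserts with a summit of fold 50 or more, grey points those without. Deserts of about 1 Mb range from no summit to the 80 between Klf4 and Actl7b.

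Of the desert summits, 872 lay inside an lncRNA gene, which is 19.8% (18.7 to 21.0%). The same genes covered 9.40% of desert bases, so summits were 2.11 times as frequent there as their share of bases. Nearer to protein-coding genes, 20.5% (20.2 to 20.9%) of intergenic summits lay inside lncRNA genes that covered 13.4% of bases, a ratio of 1.53. Within 10 kb of an lncRNA gene, or inside it, were 30.5% of desert summits on 13.6% of bases (ratio 2.24) and 40.3% of nearer intergenic summits on 24.5% of bases (ratio 1.65). Strength hardly differed: the median fold of desert summits was 5.29 inside lncRNA genes and 5.05 outside. Of the 174 strong desert summits 22.4% lay inside one.

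The 1273 lncRNA genes that overlap deserts mostly have names of the form Gm plus a number (1042) or names ending in Rik (200), and roles are not given here for them. Desert summits lay inside 309 of them. The counts per gene leave out summits in any part of it within 200 kb of a protein-coding gene. Gm34061, in the Klf5 desert, held the most with 32, up to a fold of 98.1, and its neighbour Gm41230 held 12, up to 104.9. Lncpint held 24, up to 126.0. Gm45968, between Zpld1 and the NF-kappaB regulator gene Nfkbiz, held 21, up to 71.2. Gm30246, between Serp2 and Lacc1, held 18 and included the fold of 248.2 described above.

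Among the others, Gm13481 held 16 in the Zeb2 desert, up to 93.8, and Gm34719 held 14 between Rtl1 and Dio3, up to 126.8. The lncRNA gene 5430437J10Rik held 13 in the Ptger4 desert. A930011G23Rik, between Rasgef1b and Vamp9, held 12 up to 122.4, and 1700020N01Rik, between Aldh8a1 and the kinase gene Sgk1, held 12 up to 118.8. These genes differ in length from 29.2 kb (1700020N01Rik) to 431.8 kb (A930011G23Rik), and the counts are not corrected for it. At the ends of lncRNA genes, 122 of the 1273 genes had a desert summit within 1 kb, 167 summits in all. The share of desert bases at such ends was not computed, so this count is not a density. Of these ends, the strongest summit was that at 4930579D09Rik printed above, with a fold of 114.7 (476 fragments, 434 to 521) 42 bp after the start. That at Gm26901 had 86.1 (357 fragments, 321 to 396) and lay 97 bp before the start.

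Deserts also held 44 miRNA hairpins, and 6 had a desert summit within 10 kb. The share of all desert bases within 10 kb of a summit was not computed, so no link to hairpins can be read from this count. Mir802, studied in mouse liver for its effect on glucose metabolism, lies between Runx1 and Setd4 and had 9 such summits. Its mature sequences, from RefSeq, are printed with the seed (bases 2 to 8) in capitals because it is the hairpin that carries a summit. They lie at chr16:93369737-93369758 and chr16:93369775-93369796 on the plus strand.
mmu-miR-802-5p: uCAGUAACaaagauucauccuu
mmu-miR-802-3p: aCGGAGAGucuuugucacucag

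The summit inside the Mir802 hairpin, at position 93369768 of chromosome 16, had a fold of 6.25 and 25 fragments. The strongest of the 9, with a fold of 20.9 and 86 fragments, lay 2988 bp from the hairpin. Mir6390, between Ndfip2 and Spry2, had 10 summits within 10 kb, among them the fold of 163.3, which lay 7591 bp from its hairpin. The other 4 hairpins, Mirlet7a-2, Mir100, Mir6388 and Mir135a-2, had 1 summit each, with folds of 2.65 to 4.09, and that of Mirlet7a-2 and Mir100 is the same summit. Some antigen receptor loci, whose segments are not counted as protein-coding, held desert summits too. The Igh locus had 11 with a median fold of 3.37, and the Tcra locus 11 with a median fold of 4.57. Igk had 5, while Igl, Tcrb and Tcrg had none. The 5 in Tcrd, a locus nested in Tcra, are among the 11 of Tcra. These counts were not set against the bases of each locus.

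The genes beside deserts were read against 5 lists. All 1281 flanking genes had a median of 3 summits in the deserts beside them, and 19.0 summits per Mb in the 200 to 300 kb nearest to the gene. Each desert counts for both genes beside it. Of 40 intestinal epithelial regulators 15 flanked a desert, with a median of 11 summits, 41.6 per Mb over whole deserts and 77.6 per Mb at 200 to 300 kb. The highest counts, of 404 in all, were 100 beside Klf6, 80 beside Klf4, 53 beside Myc, 45 beside Klf5 and 28 beside Sox9, a factor of crypt stem cells. Of the 21 counted beside Hnf4g, 19 are the weak summits at the start of chromosome 3. Much of the near value came from few genes: of 120 summits at 200 to 300 kb, 31 were beside Klf6, 22 beside Klf4, 21 beside Klf5 and 18 beside Id2. Beside Myc and Sox9 the summits lay farther off, with 3 each at 200 to 300 kb.

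Of 18 AP-1 and Maf genes 2 flanked a desert. Maf, a leucine zipper gene, had 27 summits beside it, up to a fold of 73.8, and Jun, which encodes a partner of Fos, had 14, up to 26.2. At 200 to 300 kb, 3 were beside Maf and 11 beside Dynlrb2, the gene across the same desert. Likewise 5 were beside Jun and 9 beside Fggy, across its desert. Fos itself flanked no desert. Of 65 developmental transcription factors 44 flanked a desert, with a median of 6 summits, 13.9 per Mb over whole deserts and 25.4 per Mb at 200 to 300 kb. Zeb2 had 45, Tbx3 44, Irx1 37, Bcl11a 34 and Sall3 30. None of the 45 beside Zeb2 lay within 300 kb of it.

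Of the 5 lists, neuronal adhesion genes flanked the longest deserts and had the fewest summits for their length. Of 61 such genes 47 flanked a desert, with a median of 2.59 Mb of desert beside each, against 0.395 Mb for all flanking genes. Their median of 3 summits equalled that of all flanking genes, but the density was 2.15 per Mb over whole deserts, against 9.56, and 3.61 per Mb at 200 to 300 kb, against 19.0. Cdh2 had 25, Epha7 22, Cdh11 19, Lrrc4c 18 and Tenm4 18, and 7 of the 18 beside Lrrc4c belong to the cluster described above.

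Of 48 growth factor and morphogen ligands 17 flanked a desert, with a median of 2 summits. Their density was 11.6 per Mb over whole deserts, above the 9.56 of all flanking genes, and 6.25 per Mb at 200 to 300 kb, below the 19.0 of all flanking genes. Fgf9 had 28, up to a fold of 61.3, Slit2 25, up to 53.2, and Bmp4 14, up to 21.9. Bmp2 had 8 and Gdf6 had 6, one of which had a fold of 90.2. Rspo3, which encodes a niche signal of the crypt, and Fgf10 flanked deserts without a summit. These were short, with 0.260 Mb beside Rspo3 and 0.143 Mb beside Fgf10. Fgf12, Sema3a and Sema3d of this list had no desert summit either. The lists were chosen with results of these data known, and their medians and densities are given as descriptions with no test.

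**Figure D5:**
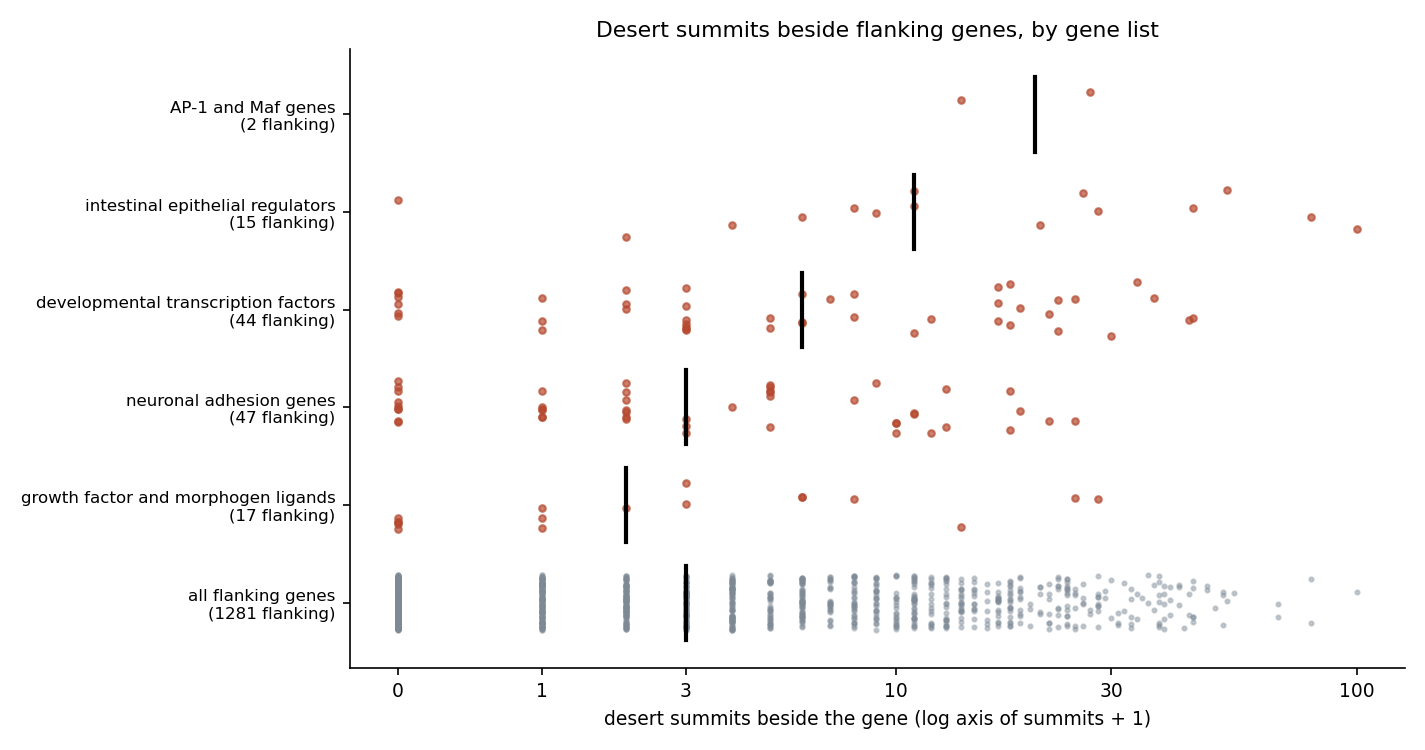
Desert summits beside each flanking gene (log axis of the number plus 1), by gene list, with 1 point per gene and the median as a black bar; all 1281 flanking genes are in grey. The medians are 11 for the 15 intestinal epithelial regulators, 6 for the 44 developmental transcription factors and 3 for the 47 neuronal adhesion genes, which is also the median of all flanking genes.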

How the data were processed

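CUT&Tag for Fos was made from 2 colitis recovered and 2 healthy control libraries of colonic mucosa. The submitters' processing notes name Bowtie2, MACS2 and mm10 without versions. The authors deposited 1 narrowPeak list for the series. Which libraries entered it and how they were combined is not given in the sources used here, and depth per library is unknown. The deposited fold is a linear ratio over background, the deposited −log10 p-value and −log10 q-value are the caller's, and the authors' score is 10 times the −log10 q, truncated, at all 178981 summits. These values are the authors' own and were used within the list alone. The lowest −log10 q of a desert summit was 1.80. Fragments were read from the fold, and a Poisson −log10 p computed from them matched the deposited one within 0.01 at 100% of 167414 summits where it could be computed.

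Summit positions are 1-based. Distances to gene spans came from a RefSeq gene table of GRCm38.p6, which gives no exons. Of 20665 autosomal protein-coding rows 107 had positions out of chromosome order and were left out, and the same 4397 summits were found with them. lncRNA rows used numbered 12322. Bases were counted from position 3000001. Intervals of shares are 95% Wilson and those of fragments exact Poisson, and both cover counting error only, because PCR copies are not separate molecules. Distances were checked on 4000 simulated positions, of which 100% matched. Python 3.11.15, numpy 2.4.6, pandas 2.3.3, scipy 1.17.1 and matplotlib 3.10.9 were used.

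The members and lists were chosen with earlier results of these data known. The rule named the 10 strongest summits (1 per region), the flanks of the 10 richest deserts and of the 10 densest with at least 1 Mb, the 10 lncRNA genes with the most summits, the 10 largest groups, the 5 genes per list with the most summits and the 3 longest empty deserts of at least 1 Mb. An item that this rule names is not reported here. Further genes in the text, among them those with promoter windows, miRNAs, weak groups, Id2, Fos, Bmp2, Gdf6, Rspo3 and Fgf10, were chosen after their values were seen. A planned share of summits with TGANTCA nearby was not run because no genome sequence was used here, and promoter windows were scanned in its place. Alternatives were other distances, a stricter −log10 q, 1 summit per region, no wide regions and other linking distances.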

Additional observations from a re-analysis of the deposited data

How the results depend on the processing

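No paired analysis was possible because the list has no column per library, and leaving out a replicate could not be done for the same reason. Desert summits stayed sparser than nearer intergenic ones under all 6 other choices of distance, strength and region that were tried, and their median fold stayed lower. With deserts drawn at 100 kb there were 9941 summits, a density ratio of 0.210, a median fold of 5.53, 76.8% with a neighbour within 10 kb and 24.0% inside an lncRNA gene, the last now above the 19.8% nearer to genes. At 500 kb there were 670, with 0.0638, 4.93, 54.9% and 11.5% for the same measures. With a −log10 q of at least 10 there were 2098, with a ratio of 0.126, a median fold of 11.1 against 12.0 nearer to genes, and 68.4% with a neighbour. With 1 summit per region the ratio was 0.184 and 55.6% had a neighbour, against 77.6% nearer to genes. Without regions wider than 3000 bp the ratio was 0.162. A neighbour lay within 5 kb of 62.2% and within 50 kb of 86.4%. Counting 10 kb around lncRNA genes gave 30.5%. Leaving out chromosome starts and the Lrrc4c cluster, an alternative chosen after seeing the data, gave 4342 summits, a ratio of 0.151, a median fold of 5.05, 69.8% with a neighbour and 20.1% in lncRNA genes. The share in lncRNA genes depends on the distance that defines a desert, and the cause was not tested. The median desert summit rests on 20 fragments, and 10 is the fewest at any, so weaker sites fall under the caller's threshold.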
